A study of Mus musculus with 6 samples.

Results

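The genes of the mitochondrial ribosomal proteins were compared between RUNX2/MYC and wild-type (WT) thymus. Members were all gene symbols of the form Mrpl or Mrps followed by a number that have a probe set paired with that symbol alone, and where a gene had several such probe sets the brightest was used. This gave 77 genes of the 19938 measured in this way, 48 named for the large subunit (Mrpl) and 29 named for the small subunit (Mrps). RefSeq lists 78 protein-coding mouse genes with such symbols, and the one left out, Mrpl53, shares its probe set with the neighbouring gene Ccdc142. The rule uses names and brightness and no difference between the groups.

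RNA was taken from whole thymus of 10-day-old mice and hybridised to Affymetrix gene arrays. The RUNX2/MYC group (3 arrays) had the genotype CD2-Myc/CD2-Runx2 on a C57BL6/CBA background, and the WT group (3 arrays) came from C57/CBA mice of the same age. In the transgenic mice CD2 control elements drive MYC and Runx2 in T cells, and the study describes the thymus of this age as premalignant. No mice with 1 of the transgenes alone are among these samples, so the parts of MYC and Runx2 cannot be told apart. Each array is labelled as a separate biological replicate, and each averages over thymocytes, epithelium and all other cells of the organ. Because the tissue was not sorted, fewer cells of a type and less RNA per cell cannot be told apart.

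Mitochondria translate the few proteins encoded by their own genome, all of them core subunits of the respiratory chain and the ATP synthase, on a ribosome that differs from the one in the cytosol. Its RNA comes from mitochondrial DNA, while every protein of it is encoded in the nucleus, made in the cytosol and imported. Some of these proteins descend from bacterial ribosomal proteins and others are particular to mitochondria. MYC is known as an activator of genes for both cytosolic and mitochondrial ribosomes.

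As a check of the labels, the Runx2 probe set had log2 signals of 11.73, 11.78 and 11.96 on RUNX2/MYC replicates 1 to 3 and of 7.94, 7.94 and 7.93 on the WT arrays (log2 fold change 3.89, standard error 0.093, limma adjusted p = 4.27e-05). Array medians ran from 7.31 to 7.49. Markers of thymocytes were bright on all arrays, with a median signal of 11.95 over the 13 measured of 15, and their array means were 11.20 to 11.54 in RUNX2/MYC and 11.53 to 11.67 in WT. Their median log2 fold change was -0.19, from -0.74 for Cd4 to 0.32 for Cd3d. Of these markers 5 were lower without overlap (against 11.2% of all genes), 1 was higher without overlap (against 15.5%) and 0 passed the limma test. All 14 markers of thymic epithelial cells had a negative fold change, with array means of 9.38 to 9.52 against 9.72 to 9.88 and a median log2 fold change of -0.32. Of these 14 markers 11 were lower without overlap (against 11.2% of all genes) and 0 higher. At an unadjusted limma p under 0.05, 9 were lower (against 8.01%). The limma test with adjustment called 1 lower (against 0.0953%), Dsc3, a desmosomal cadherin (-0.56, limma adjusted p = 0.0428). The part of these marker differences in the results below was not tested.

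Almost all mitochondrial ribosomal protein genes had a higher mean signal in RUNX2/MYC thymus. The test was limma, a moderated linear model on the log2 signals, with p-values adjusted by Benjamini-Hochberg over 35556 probe sets and a threshold of 0.05 for a call. The background is given as the share of all 19938 genes, each on its brightest probe set. By this rule 11 of the 77 members (14.3%) were higher, against 2.27% of all genes, and 0 were lower, against 0.0953%. At an unadjusted limma p under 0.05, 59 members were higher (76.6%, against 13.2% of all genes) and 0 lower (against 8.01%). The one-way ANOVA with q values that the study's methods name called 18 members higher (23.4%, against 4.11% of all genes) and 0 lower. The sign was shared more widely than the calls, since 76 of 77 members had a positive log2 fold change, which holds for 40.2% of all genes. The exception was Mrps16.

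The arrays of the groups did not overlap for 64 of the 77 members (83.1%), all of them higher in RUNX2/MYC, where 15.5% of all genes were higher without overlap. No member was lower without overlap, against 11.2% of all genes. The median log2 fold change of the members was 0.41, a 1.32-fold difference, and its lower and upper quartiles were 0.30 and 0.53. Over all genes the median was -0.07. Genes as bright as the members were higher more often than dim ones, so genes of like brightness are the closer background. Among the 3666 genes with a mean signal between the lower and the upper quartile of the members (8.60 to 9.81, members included), the median log2 fold change was 0.17, 78.2% were positive and 32.9% were higher without overlap. Those shares lie above those over all genes and below those of the members. By the limma rule, 194 of these 3666 genes were called higher and 2 lower. At an unadjusted limma p under 0.05, 1090 of the 3666 were higher and 117 lower. As shares, both counts of higher genes also lie above those over all genes and below those of the members.

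**Figure D1:**
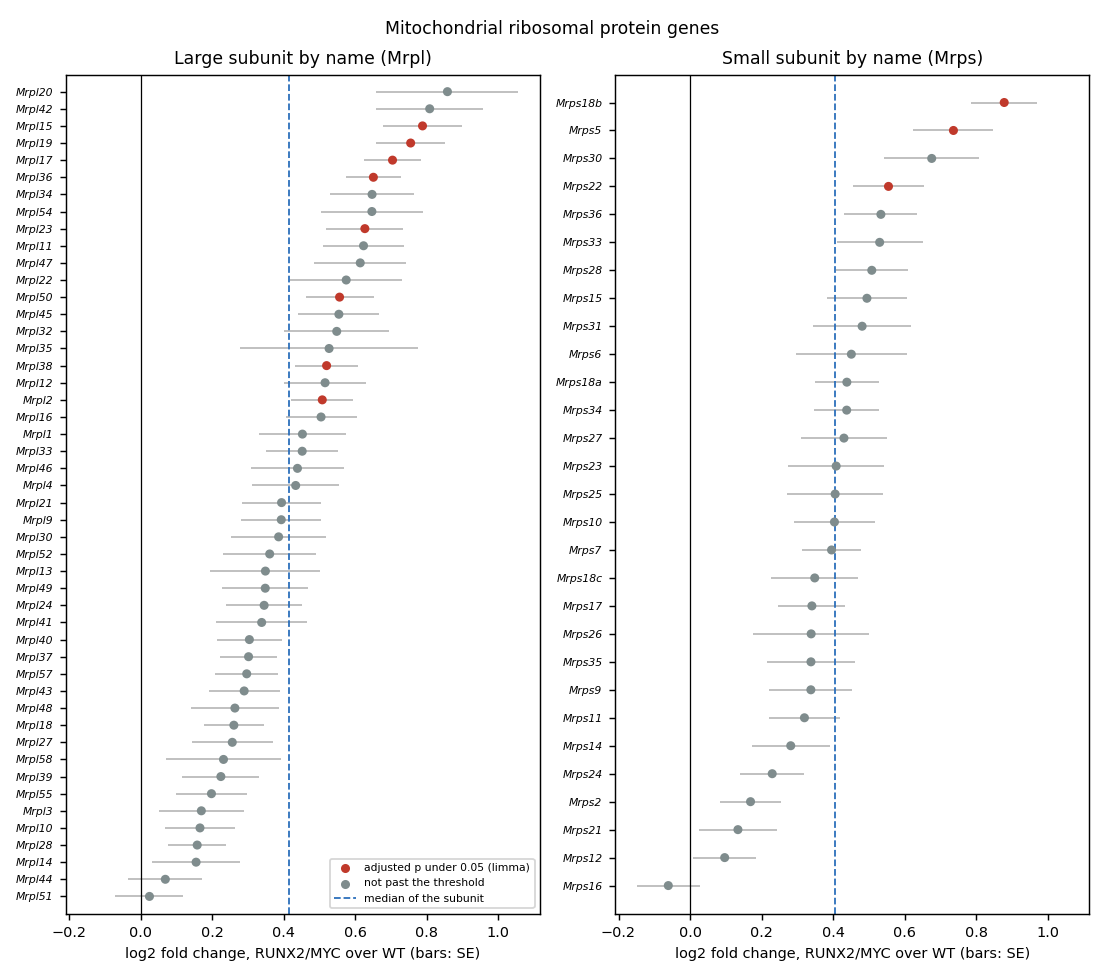
Log2 fold change (RUNX2/MYC over WT, 3 arrays each) of the 48 Mrpl genes on the left and the 29 Mrps genes on the right, ranked within each panel, with the standard error as a bar and genes past an adjusted p of 0.05 in red. All points but Mrps16 lie right of 0, and the dashed medians, 0.41 in both panels, stand at the same place.

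The ranked plot of fold changes shows that the range within each subunit was far wider than the distance between their medians. It also shows that called genes are not simply those of largest change. Mrpl20 and Mrpl42, the largest changes of the large subunit, were not called, while Mrpl2 and Mrpl38 were called with smaller changes and tighter arrays.

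**Figure D2:**
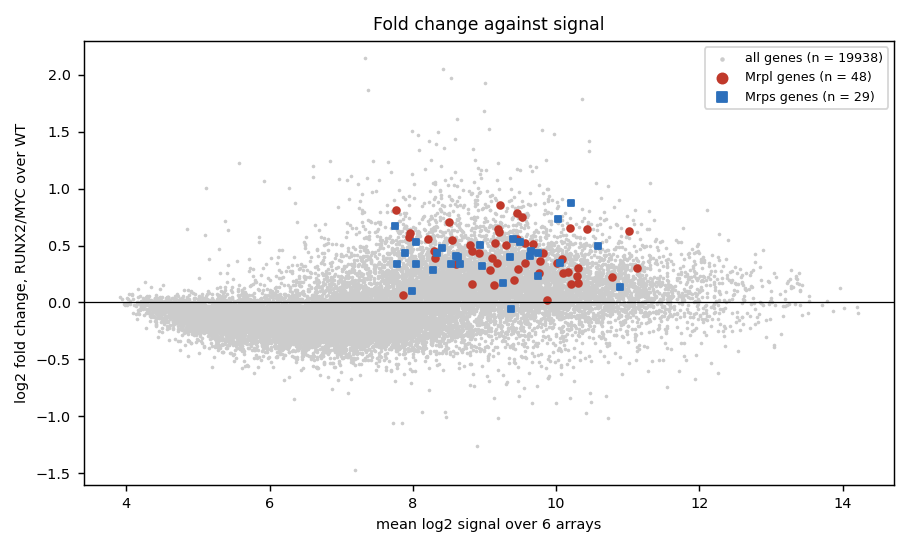
Log2 fold change (RUNX2/MYC over WT) against mean log2 signal over the 6 arrays, for all 19938 genes (grey), the 48 Mrpl genes (red circles) and the 29 Mrps genes (blue squares). The members lie between signals of 7.74 and 11.13 and nearly all lie in the upper part of the cloud, which itself tilts upward from dim to bright genes.

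In the plot of fold change against signal, members of every brightness lay above the line of no change. Across the 77 members, the log2 fold change and the mean signal had a Spearman rho of -0.14 (a description across genes, which share the same 6 arrays). The bright end was held by Mrpl40, a component of the central protuberance, at a mean signal of 11.13, by Mrpl23 at 11.02 and by Mrps21 at 10.90. The dim end was held by Mrps30 at 7.74, Mrpl42 at 7.77 and Mrps17 at 7.78. Signals of different probe sets are not levels that can be ranked between genes, and are given here only as the brightness behind each value. Mrpl40 had a log2 fold change of 0.30 (limma adjusted p = 0.145) and Mrps17, the counterpart of a primary rRNA-binding protein of the bacterial small subunit, one of 0.34 (limma adjusted p = 0.124), both without overlap between the groups.

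By name, 3 members of the small subunit were called. Mrps18b, which belongs to a family of 3 paralogs related to bacterial S18, had log2 signals of 10.63, 10.73 and 10.57 in RUNX2/MYC and of 9.84, 9.80 and 9.67 in WT. The lowest RUNX2/MYC array lay 0.73 above the highest WT array, the widest gap between the groups among the called members. The log2 fold change was 0.88 (1.84-fold, standard error 0.093, limma adjusted p = 0.0149), the largest of all members. Mrps5, the counterpart of bacterial S5 at the site where mRNA enters, read 10.36, 10.53 and 10.30 against 9.66, 9.51 and 9.81. Its log2 fold change was 0.74 (standard error 0.11, limma adjusted p = 0.0316). Mrps22, a protein particular to mitochondria whose mutation causes human mitochondrial disease, read 9.60, 9.83 and 9.61 against 9.18, 9.13 and 9.06. The groups stood 0.42 apart at their nearest arrays, and the log2 fold change was 0.55 (standard error 0.098, limma adjusted p = 0.0462).

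The other paralogs of Mrps18b were compared with it by their values. Mrps18a, which despite its name sits in the large subunit, had log2 signals of 9.97, 10.04 and 9.87 in RUNX2/MYC and of 9.54, 9.45 and 9.58 in WT, a log2 fold change of 0.44 (limma adjusted p = 0.0651). Mrps18c read 10.07, 10.31 and 10.29 against 9.74, 9.82 and 10.07, and its log2 fold change of 0.35 had an adjusted p of 0.184 from limma. All 3 paralogs lay higher in RUNX2/MYC without overlap, although Mrps18c did so by the narrowest margin, between RUNX2/MYC replicate 1 and WT replicate 3. Whether the paralogs differ in their change was not tested.

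**Figure D3:**
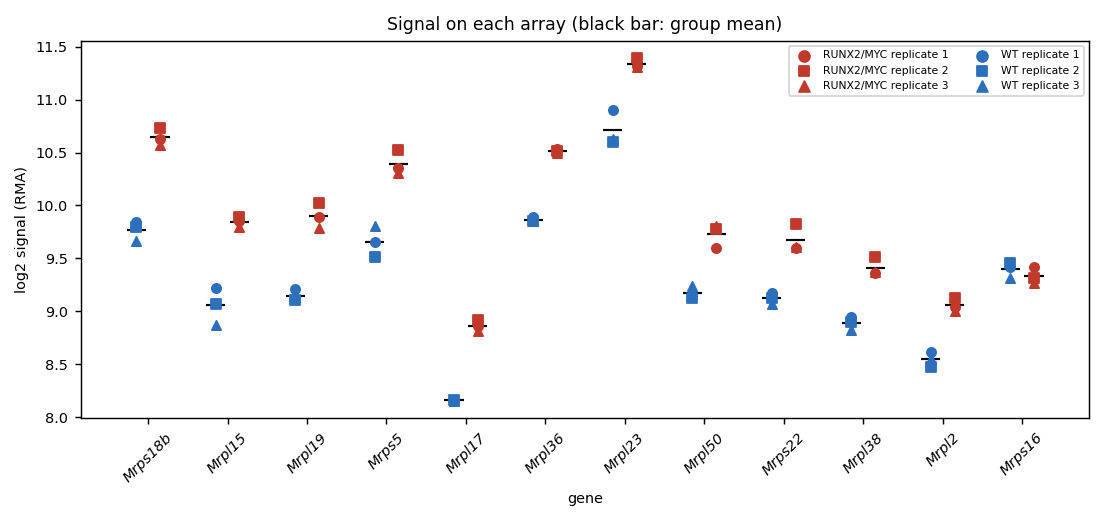
Log2 signal of the 11 called members and of Mrps16 on each of the 6 arrays, WT in blue and RUNX2/MYC in red, with replicates 1, 2 and 3 as circles, squares and triangles and group means as black bars. The groups stand apart in all 11 called genes and overlap in Mrps16.

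In the large subunit 8 members were called. Mrpl15, the counterpart of bacterial L15, had log2 signals of 9.85, 9.89 and 9.79 in RUNX2/MYC and of 9.22, 9.07 and 8.87 in WT (log2 fold change 0.79, standard error 0.11, limma adjusted p = 0.0259). Mrpl19, whose bacterial counterpart lies at the interface of the subunits, read 9.89, 10.03 and 9.78 against 9.21, 9.11 and 9.11 (0.75, standard error 0.096, limma adjusted p = 0.0209). The nearest arrays of the groups were 0.57 apart in both genes.

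Mrpl17, which lies near the exit of the tunnel through which the new protein leaves, read 8.86, 8.91 and 8.81 against 8.16, 8.16 and 8.15. Its WT arrays differed by an SD of only 0.0037, the smallest within-group SD of any member, and the log2 fold change was 0.70 (standard error 0.079, limma adjusted p = 0.0159). Mrpl36, the counterpart of the short zinc-binding protein L36, had the tightest RUNX2/MYC arrays of all members (10.54, 10.52 and 10.50, SD 0.018) and read 9.89, 9.85 and 9.85 in WT. The log2 fold change was 0.65 (standard error 0.077, limma adjusted p = 0.0174).

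Mrpl23, another protein of the tunnel exit, read 11.31, 11.39 and 11.31 against 10.90, 10.60 and 10.63 (log2 fold change 0.63, standard error 0.11, limma adjusted p = 0.0433). WT replicate 1 was the WT array nearest to RUNX2/MYC here, as in most called members of the large subunit. Mrpl50, particular to mitochondria, read 9.59, 9.78 and 9.81 against 9.14, 9.13 and 9.24 (0.56, standard error 0.095, limma adjusted p = 0.0431). Mrpl38, a component of the central protuberance, read 9.36, 9.51 and 9.37 against 8.95, 8.90 and 8.83 (0.52, standard error 0.089, limma adjusted p = 0.0431). The smallest called change was that of Mrpl2, which lines the peptidyl transferase centre. It read 9.04, 9.13 and 9.0 against 8.62, 8.48 and 8.55, a log2 fold change of 0.51 (1.42-fold, standard error 0.087, limma adjusted p = 0.0429).

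The plot of the called members shows the separation array by array. Whether the calls held with fewer arrays depended on the array left out. In limma fits without replicate 2 or replicate 3 of RUNX2/MYC, or without replicate 1 or replicate 2 of WT, 0 members passed, while 3 to 4 of all probe sets did. Without RUNX2/MYC replicate 1 the count was 16 and all 11 calls held, while 872 of all probe sets were called higher and 718 lower. Leaving out WT replicate 3 gave 9, of which 6 were among the 11, and called 540 of all probe sets higher and 75 lower.

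Some members with large changes missed the threshold. Mrpl20, the counterpart of an assembly protein of the bacterial large subunit, had the largest change of the large subunit at 0.86, with wide spread in both groups. Its log2 signals were 9.33, 9.91 and 9.69 in RUNX2/MYC and 9.13, 8.65 and 8.58 in WT (standard error 0.20, limma adjusted p = 0.0867). Mrpl42 read 8.11, 8.18 and 8.22 against 7.34, 7.09 and 7.66 (log2 fold change 0.81, standard error 0.15, limma adjusted p = 0.0516). Neither gene overlapped between the groups.

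Mrps30, which like Mrps18a is held in the large subunit of the mature ribosome, read 7.88, 8.23 and 8.14 against 7.32, 7.30 and 7.60 (0.68, standard error 0.13, limma adjusted p = 0.0604). Mrpl11, at the base of the stalk that receives translation factors, read 9.46, 9.72 and 9.35 against 8.88, 8.85 and 8.94 (0.62, limma adjusted p = 0.0505). Mrpl12, a stalk protein that also binds the mitochondrial RNA polymerase, read 10.08, 9.92 and 9.81 against 9.45, 9.26 and 9.53 (0.52, limma adjusted p = 0.0789). In all 3 genes every RUNX2/MYC array lay above every WT array. Mrps36 is by current knowledge a subunit of the 2-oxoglutarate dehydrogenase complex and not of the ribosome. It read 8.24, 8.46 and 8.26 against 7.77, 7.70 and 7.89, a log2 fold change of 0.53 (limma adjusted p = 0.0559) that lies within the range of the ribosomal members.

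The groups overlapped in 13 members. Mrps16, the counterpart of an assembly protein of the bacterial small subunit, had the one negative value. Its log2 signals were 9.42, 9.32 and 9.27 in RUNX2/MYC and 9.42, 9.45 and 9.31 in WT (log2 fold change -0.06, standard error 0.089, limma adjusted p = 0.674). The value was 0.02 after median centring of the arrays. Mrps12, part of the decoding centre and the counterpart of the bacterial protein altered in streptomycin resistance, read 8.12, 8.02 and 7.98 against 7.99, 7.98 and 7.86 (0.10, limma adjusted p = 0.508). Mrps21 read 10.86, 11.00 and 11.04 against 10.93, 10.66 and 10.91 (0.13, limma adjusted p = 0.459).

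Among the large subunit the lowest values were those of Mrpl51, Mrpl44 and Mrpl14. Mrpl44, which has a ribonuclease III fold, read 7.86, 8.04 and 7.79 against 7.83, 7.92 and 7.73 (log2 fold change 0.07, standard error 0.10, limma adjusted p = 0.683). Mrpl14 read 9.27, 9.38 and 8.99 against 9.16, 9.01 and 9.0 (0.16, limma adjusted p = 0.451). Mrpl51 read 9.77, 9.96 and 9.91 against 9.77, 9.84 and 9.95 (0.02, limma adjusted p = 0.881), and this value depended on which of its probe sets was read. Mrpl35, named here after its values were seen, read 9.82, 9.88 and 9.78 against 9.92, 9.01 and 8.96, so that WT replicate 1 lay above all RUNX2/MYC arrays and the other WT arrays below them. Its WT SD of 0.54 was the largest within-group SD of any member, and its log2 fold change of 0.53 had a limma adjusted p of 0.268.

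The array reads 8 members with a pair of probe sets each. Probe set numbers on this array run along the chromosomes. Over 18863 genes with 1 probe set, the 20 nearest-numbered probe sets lay mostly on the gene's own chromosome for 99.76% of genes. By this measure the brightest probe sets of Mrpl27, Mrpl41, Mrpl51, Mrps33 and Mrpl48 were numbered among genes of another chromosome, as were the dimmer ones of Mrpl23 and Mrps36. RefSeq holds 6 pseudogenes with symbols of this family, those of Mrpl23, Mrpl27, Mrpl48 and Mrps36 among them, and what these probe sets bind was not tested. No pseudogene symbol had a probe set of its own.

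The probe sets of a gene gave similar values in some members and not in others. For Mrpl51 the dimmer probe set, numbered on the gene's own chromosome, read 8.89, 9.34 and 9.42 in RUNX2/MYC against 8.68, 8.88 and 8.92 in WT, a log2 fold change of 0.39 (limma adjusted p = 0.222) in place of 0.02. Mrpl41 went the other way, from 0.34 to 0.02 on its own chromosome. Mrpl27 had 0.26 and, on its own chromosome, 0.09. Mrpl47 had 0.61 on its brighter probe set and 0.02 on a dim one with a mean signal of 6.04. The values of Mrpl23 (0.63 and 0.65), Mrps33 (0.53 and 0.46), Mrps36 (0.53 and 0.55) and Mrps5 (0.74 and 0.48) were closer. No pair differed in sign. With each gene read from a probe set of its own chromosome, Mrpl48 dropped out and 11 of 76 members were called, 75 were positive and the median log2 fold change was 0.41.

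The large and the small subunit differed little. The median log2 fold change was 0.41 for the 48 Mrpl genes (lower to upper quartile 0.28 to 0.56) and 0.41 for the 29 Mrps genes (0.34 to 0.49), a difference of 0.0081. Of the Mrpl genes 8 were called (16.7%), 39 were higher without overlap (81.2%) and 48 were positive. Of the Mrps genes 3 were called (10.3%), 25 were higher without overlap (86.2%) and 28 were positive. Within an array, the mean signal of the Mrpl genes minus that of the Mrps genes was 0.36, 0.36 and 0.34 in RUNX2/MYC and 0.38, 0.31 and 0.27 in WT. The groups overlapped in this measure, and their means differed by 0.028, less than the SD of 0.057 among the WT arrays. The sign of the difference between the medians turned under 3 of the alternatives tried and under the omission of some arrays, so no order of the subunits was seen.

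Names do not always give the subunit. With Mrps18a and Mrps30 counted in the large subunit and Mrps36 left out, the medians were 0.44 for 50 genes and 0.40 for 26 genes. Descent was also compared. The 46 members with a bacterial homolog had a median log2 fold change of 0.40 and the 30 particular to mitochondria one of 0.41. Mrps18a and Mrps18b were counted here as particular to mitochondria and Mrps18c as a homolog, although these paralogs are all related to bacterial S18. Within the large subunit by name the homologs lay higher (0.48 over 30 genes, against 0.32 over 18), and within the small subunit they lay lower (0.34 over 16 genes, against 0.44 over 12). These are descriptions, with no test of the differences, and the quartiles of the groups overlapped in both subunits.

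Positions within the ribosome were assigned with the values known and include genes outside the rule for naming, so the following is a description. Many members were given no position, the lists of a position need not be complete, and differences between positions were not tested. The 6 members assigned to the tunnel exit were Mrpl17, Mrpl22, Mrpl23, Mrpl24, Mrpl45 and Mrpl47. They had a median log2 fold change of 0.59, from 0.35 for Mrpl24 to 0.70 for Mrpl17, and these 6 were higher without overlap. Mrpl45 is the counterpart of a yeast protein that holds the ribosome at the inner membrane. The 4 stalk members, Mrpl1, Mrpl10, Mrpl11 and Mrpl12, had a median of 0.48, from 0.17 for Mrpl10 to 0.62 for Mrpl11. The 5 members of the peptidyl transferase core had a median of 0.43, the 7 of the head of the small subunit one of 0.40 and the 5 of the central protuberance one of 0.30. All 7 head members were higher without overlap and 0 of them were called, 7 having an unadjusted limma p under 0.05. Over all genes 15.5% were higher without overlap, 2.27% were called higher and 13.2% were higher at that unadjusted p.

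Within the RUNX2/MYC group the members moved together from array to array, as did genes of like brightness. The mean log2 signal of all 77 members was 9.41, 9.57 and 9.41 on RUNX2/MYC replicates 1 to 3 and 9.07, 8.99 and 9.07 on the WT replicates. The groups did not overlap, and their SDs were 0.093 and 0.046. RUNX2/MYC replicate 2 was the highest array of its group for 63 members (81.8%) and the highest of all 6 arrays for 62. WT replicate 2 was the lowest of all 6 arrays for 35 members, WT replicate 3 for 21 and WT replicate 1 for 18. Among genes of like brightness, RUNX2/MYC replicate 2 was the highest of its group for 62.0%. RUNX2/MYC replicate 1 was the lowest of its group for 80.6% of these genes and for 48.1% of the members. The array means of the genes of like brightness had SDs of 0.114 in RUNX2/MYC and 0.089 in WT, larger than those of the members.

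Adipocyte markers stood out on that same array. Of 13 measured of 14, 10 were highest there, with a mean signal of 8.23 against 7.24 and 7.13 on the other RUNX2/MYC arrays and 6.99 to 7.38 on the WT arrays. Ucp1, the uncoupling protein of brown fat, read 9.93 there and 6.12 to 6.95 elsewhere. Between the groups 0 of the 13 adipocyte markers were called, and 2 were higher without overlap (15.4%, against 15.5% of all genes). Without RUNX2/MYC replicate 2 the median log2 fold change of the members was 0.36 and 74 of 77 were positive, with the median of all probe sets at -0.04. The part of adipocytes in these results was not tested.

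The spread of single members was alike in both groups. The median SD over 3 arrays was 0.116 in RUNX2/MYC and 0.119 in WT, with the larger SD in RUNX2/MYC for 41 members and in WT for 36. Over all genes the medians were 0.133 and 0.128. The members with the largest SD in RUNX2/MYC were Mrpl20 at 0.29 and Mrpl32 at 0.26, and in WT they were Mrpl35 at 0.54 and Mrpl20 at 0.30. Across members, the SDs of both groups had a Spearman rho of 0.21 (a description over 77 genes).

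**Figure D4:**
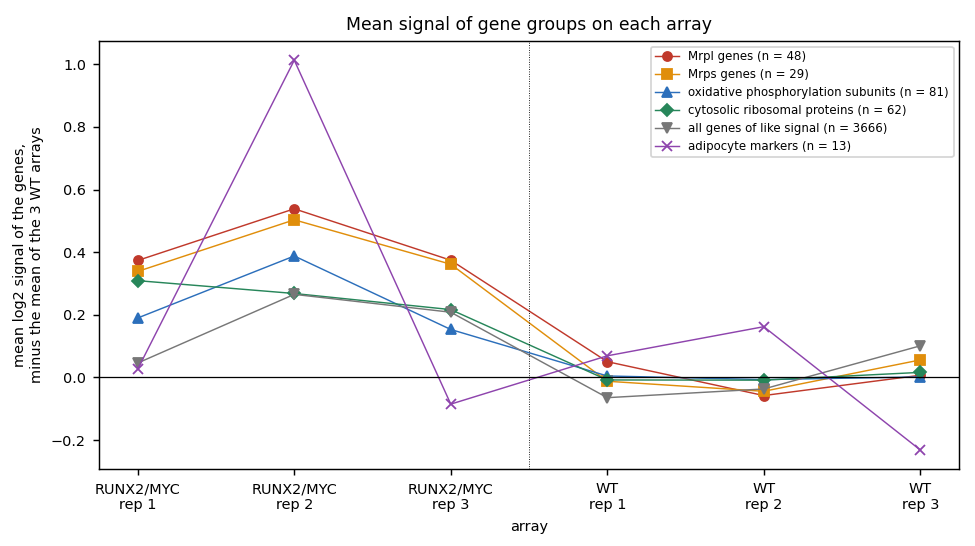
Mean log2 signal of 6 gene groups on each array, as the difference from the mean of the 3 WT arrays. The lines only join the points of a group. The Mrpl and Mrps genes lie at 0.34 to 0.54 on all RUNX2/MYC arrays, above the cytosolic ribosomal proteins, the oxidative phosphorylation subunits and all genes of like signal, while the adipocyte markers stand high on RUNX2/MYC replicate 2 alone.

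As the plot of array means shows, the cytosolic ribosomal proteins and the oxidative phosphorylation subunits had smaller medians in the same direction. These lists were also brighter, with median signals of 12.21 and 10.51, against 9.30 for the members. The part of brightness in their medians was not tested. The 62 cytosolic ribosomal protein genes had a median log2 fold change of 0.25 with 4 called higher and 0 lower, and 48 were higher without overlap. For this and the lists below, the background over all genes was 2.27% called higher and 0.0953% called lower. It was 13.2% higher at an unadjusted limma p under 0.05 and 15.5% higher without overlap. The called ones were Rps3a1 (1.42, limma adjusted p = 0.0283), Rpl12 (1.07), Rpl14 (0.57) and Rps21 (0.50), all of core ribosomal proteins, and the lowest value was that of Rpl39l (-0.30, limma adjusted p = 0.213), a paralog of Rpl39. The check of probe set numbers against chromosomes was made for the members only. What the probe sets of this and the other lists bind was not tested. In contrast to the members, 36 of the 62 cytosolic genes had RUNX2/MYC replicate 1 as the highest array of its group and 20 had replicate 2. Markers of red cell precursors were highest on that array as well (3 of 3 measured, 9 listed), with a mean signal of 8.87 there, 8.12 and 7.89 on the other RUNX2/MYC arrays and 7.60 to 7.90 in WT. Their median log2 fold change was 0.64, 0 of 3 were called, and 2 were higher without overlap, Alas2 (1.17), which makes haem precursors in red cells, and Slc4a1 (0.64), their anion exchanger. The part of red cell precursors in these results was not tested. A difference between the fold changes of these lists was not tested.

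The complexes of oxidative phosphorylation, except that of the Sdh genes, also hold products of mitochondrial translation. The 81 nuclear genes for subunits of these complexes, the Sdh genes included, had a median log2 fold change of 0.23. By limma 0 were called, 32 had an unadjusted p under 0.05 in the higher direction, and 47 were higher without overlap. As in the members, RUNX2/MYC replicate 2 was mostly the highest array of its group, here for 66 genes. Cox8b and Cox7a1, isoforms of cytochrome oxidase subunits used in muscle and brown fat, had the largest values (1.08 and 0.60) through RUNX2/MYC replicate 2 alone, where they read 10.12 and 9.65 against 6.73 to 7.31 and 7.72 to 8.01 elsewhere. The lowest value was that of Cox4i2 (-0.20).

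Genes that act on the mitochondrial ribosome were nearer to its proteins. Of 26 factors of its assembly and of rRNA modification 5 were called higher and 0 lower, with a median log2 fold change of 0.33. Noa1, a GTPase of ribosome assembly, read 10.23, 10.25 and 10.26 in RUNX2/MYC and 9.42, 9.49 and 9.40 in WT (0.81, standard error 0.079, limma adjusted p = 0.014). The others were Fastkd2 (0.79), which binds the large rRNA, the GTPase gene Mtg1 (0.65), the rRNA methyltransferase gene Mrm3 (0.64) and Mettl17 (0.63). The lowest was Ybey, an endoribonuclease gene, at -0.02 (limma adjusted p = 0.920). In each of the 5 called genes the groups did not overlap.

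Of 15 measured translation factors (17 listed) 2 were called, with a median of 0.42. Lrpprc, which stabilises mitochondrial mRNA, had a log2 fold change of 0.68 (limma adjusted p = 0.0371) and Mrrf, the ribosome recycling factor, one of 0.50 (limma adjusted p = 0.0492). The largest value was that of Guf1 (0.74) and the lowest that of Taco1, a translational activator of a cytochrome oxidase subunit, at 0.07. Of 12 measured genes for transcription, RNA processing and copying of mitochondrial DNA (15 names listed) 2 were called, with a median of 0.38. These were Elac2, which cuts the ends of tRNAs (0.62, limma adjusted p = 0.0316), and the helicase gene Twnk (0.55, limma adjusted p = 0.0468). Polg, the DNA polymerase, was lowest at 0.08. Ptcd3, a small subunit protein without an Mrps symbol, was the one called of 6 measured proteins from a list of 9 other names (0.71, limma adjusted p = 0.0432), with a median of 0.36 over the 6, of which Mrpl57 and Mrpl58 are also members.

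Promoters of all 8 called members with a RefSeq window are shown because the members differed in the same direction while the arrays hold no binding data. The sequences are the 250 bases before the start (for Mrpl2 the first of its 3 starts), from RefSeq (GRCm38.p6), 5′ to 3′ on the strand of the gene, and capitals mark matches to the motifs described next. Their positions are Mrps18b chr17:35916441-35916690 (minus strand), Mrps5 chr2:127587176-127587425 (plus strand), Mrps22 chr9:98601680-98601929 (minus strand), Mrpl17 chr7:105811088-105811337 (minus strand), Mrpl36 chr13:73330759-73331008 (plus strand), Mrpl23 chr7:142532782-142533031 (plus strand), Mrpl50 chr4:49521084-49521333 (minus strand), Mrpl2 chr17:46645971-46646220 (plus strand).

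Mrps18b: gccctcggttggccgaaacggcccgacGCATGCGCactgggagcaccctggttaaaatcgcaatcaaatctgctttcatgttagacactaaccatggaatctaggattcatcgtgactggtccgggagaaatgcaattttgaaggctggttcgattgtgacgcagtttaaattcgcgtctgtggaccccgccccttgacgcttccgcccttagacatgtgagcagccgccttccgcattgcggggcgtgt
Mrps5: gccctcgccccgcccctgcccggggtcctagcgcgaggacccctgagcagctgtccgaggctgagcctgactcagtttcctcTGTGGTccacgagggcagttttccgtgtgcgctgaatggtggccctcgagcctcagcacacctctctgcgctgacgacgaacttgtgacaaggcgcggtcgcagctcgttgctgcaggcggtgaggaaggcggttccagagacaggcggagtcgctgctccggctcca
Mrps22: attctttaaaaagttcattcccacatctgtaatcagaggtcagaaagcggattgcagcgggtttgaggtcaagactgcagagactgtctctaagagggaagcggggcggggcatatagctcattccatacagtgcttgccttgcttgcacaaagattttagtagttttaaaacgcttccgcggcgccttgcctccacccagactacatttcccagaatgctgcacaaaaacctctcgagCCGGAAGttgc
Mrpl17: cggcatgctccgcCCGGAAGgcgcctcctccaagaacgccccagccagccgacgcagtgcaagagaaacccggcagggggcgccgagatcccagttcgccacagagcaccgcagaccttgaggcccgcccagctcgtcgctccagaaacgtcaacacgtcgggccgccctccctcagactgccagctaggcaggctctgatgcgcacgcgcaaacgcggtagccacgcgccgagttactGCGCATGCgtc
Mrpl36: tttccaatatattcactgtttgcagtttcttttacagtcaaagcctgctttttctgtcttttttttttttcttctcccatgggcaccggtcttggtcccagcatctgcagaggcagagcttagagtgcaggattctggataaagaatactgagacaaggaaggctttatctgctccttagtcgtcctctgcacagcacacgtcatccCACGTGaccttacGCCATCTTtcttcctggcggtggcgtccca
Mrpl23: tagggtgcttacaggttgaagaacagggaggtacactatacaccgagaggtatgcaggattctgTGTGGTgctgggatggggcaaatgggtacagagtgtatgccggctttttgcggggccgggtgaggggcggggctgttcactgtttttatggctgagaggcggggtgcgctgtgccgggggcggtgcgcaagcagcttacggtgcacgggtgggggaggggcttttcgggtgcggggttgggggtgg
Mrpl50: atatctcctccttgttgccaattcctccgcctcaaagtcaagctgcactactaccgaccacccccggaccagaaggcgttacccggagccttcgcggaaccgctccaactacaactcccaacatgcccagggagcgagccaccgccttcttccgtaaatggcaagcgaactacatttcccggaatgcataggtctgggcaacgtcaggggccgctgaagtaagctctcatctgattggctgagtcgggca
Mrpl2: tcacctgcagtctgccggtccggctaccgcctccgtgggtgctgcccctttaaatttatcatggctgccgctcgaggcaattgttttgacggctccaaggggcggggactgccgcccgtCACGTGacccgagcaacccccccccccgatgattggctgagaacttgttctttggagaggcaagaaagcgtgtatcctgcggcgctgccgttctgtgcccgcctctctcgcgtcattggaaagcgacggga

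A set of 5 motifs was searched on both strands in windows from 250 bases before to 50 bases after the start, which the RefSeq table held for 68 of the 77 members and for 17492 protein-coding genes. CACGTG, the E-box bound by MYC, was found in 5 members (7.35%) and in 8.91% of all coding genes. TGTGGT, the core bound by RUNX proteins, was found in 9 members (13.2%) and in 17.2% of all coding genes. For both transgene products the share among members was therefore no higher than among coding genes at large. A match is a run of letters and not a measured site, and a missing match says only that these letters are not in this window.

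The other 3 motifs, of general promoter factors, had larger shares among the members. CCGGAAG, bound by ETS factors such as GABPA, was found in 25 members (36.8%) and in 12.9% of all coding genes. AAGATGGC, bound by YY1, was found in 12 members (17.6%, against 3.57%). GCGCATGC, the core of the site of NRF1, was found in 8 members (11.8%, against 3.94%), 7 of them among 42 genes of the large subunit and 1 among 26 of the small subunit, and both strands can match within a single symmetric site. No test was made of these shares.

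**Figure D5:**
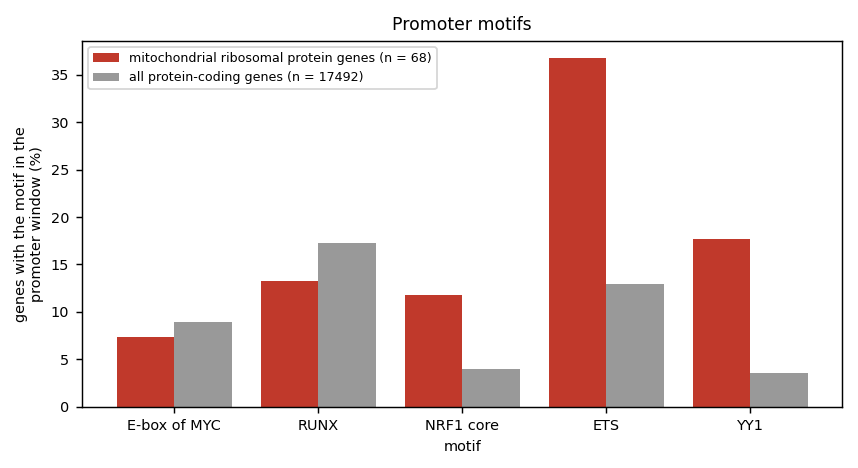
Share of genes with each motif in the window from 250 bases before to 50 bases after the start, for 68 members (red) and 17492 protein-coding genes (grey), in percent. The ETS, YY1 and NRF1 motifs were more frequent among members, and the E-box and the RUNX motif were not.

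The plot of motif shares covers all members with a window, called or not. Among the 8 called members with a window, 2 had the E-box (Mrpl36 and Mrpl2), 2 the RUNX motif (Mrps5 and Mrpl23), 2 the NRF1 core (Mrps18b and Mrpl17), 3 the ETS motif (Mrps18b, Mrpl17 and Mrps22) and 1 the YY1 motif (Mrpl36). In Mrpl36 the E-box began 43 bases and the YY1 motif 30 bases before the start. In Mrps18b one NRF1 core lay 223 bases before the start. Another lay 29 bases and the ETS motif 44 bases after the start, both outside the letters printed. Mrpl50 was called with none of the 5 motifs. The 5 members with an E-box had a median log2 fold change of 0.51 and those without it 0.39. With and without the other motifs the medians were 0.50 and 0.39 for NRF1 and 0.45 and 0.39 for RUNX. For YY1 they were 0.41 and 0.39, and for ETS 0.35 and 0.41. These differences were not tested.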

How the data were processed

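The log2 signals that the authors deposited for 6 Affymetrix arrays were used as they stand. The submitters' processing notes name RMA and Affymetrix Expression Console 1.4, whereas the study's methods describe a GC content adjustment in Partek Genomics Suite. RMA normalizes between arrays, which removes any change shared by all genes. The genome build of the probe design is not given in the sources used here. Of 35556 probe sets, an annotation table pairs 21789 with 1 gene, 1621 with several and 12146 with none. Runx2 was named through a probe set number in the study's supplement. Groups were compared with limma 3.58.1 (R 4.3.3) without covariates, and the fit was checked on simulated data. The number of arrays limits the precision: with 3 a group the smallest p of an exact permutation test on a single value is 0.1.

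Members and lists were chosen with earlier results of these data known. The text names members past the test, the 3 largest and 3 smallest changes of each subunit, the 3 brightest and 3 dimmest, and fixed members (Mrps18a, Mrps18b, Mrps18c, Mrpl12, Mrps12, Mrpl11, Mrps36, Mrps30, Mrpl23). Of each list it names called genes and the extremes. Values of a list are described by counts and medians, without a test of the list.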

Additional observations from a re-analysis of the deposited data

How the results depend on the processing

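The count of 11 members higher in RUNX2/MYC depended on the processing, while the sign of the members' median did not. The count was 2 after 75th percentile centring, 6 after cyclic loess, 3 by the methods' ANOVA with Benjamini-Hochberg adjustment, 18 by that ANOVA with q values, 18 after a filter on dim probe sets, 31 when only probe sets of 1 gene were tested and 45 without RUNX2/MYC replicate 1 and WT replicate 3 together. Array weights gave 67 higher and 1 lower (Mrps16), but their estimation did not converge. With 1 array left out the count ran from 0 to 16. It was 0 when replicate 2 or 3 of RUNX2/MYC, or replicate 1 or 2 of WT, was left out, and 0 of the 11 calls held in each of these fits. All 11 held under median centring, and 6 after cyclic loess. With the replicate block the count was 23. The replicate numbers are not labelled as shared litters or days, and deviations of same-numbered arrays correlated at 0.50, -0.15 and 0.61, so the block was not used as pairing. Over all probe sets 596 were called higher and 45 lower. This split was 209 and 45 after 75th percentile centring and 457 and 124 after cyclic loess. By the methods' ANOVA it was 162 and 33 with Benjamini-Hochberg adjustment and 1213 and 247 with q values. It was 812 and 85 of 26667 after the filter on dim probe sets, and 1236 and 149 of 21789 with probe sets of 1 gene. The split was 1654 and 763 with the replicate block and 872 and 718 without RUNX2/MYC replicate 1. It turned to 5035 and 7192 without RUNX2/MYC replicate 1 and WT replicate 3 together and to 9165 and 12137 with array weights. The member counts of 45 and 67 therefore stand beside many more calls of all kinds, and those of 18, 23 and 31 also went with more calls.

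The median log2 fold change of the members was 0.32 after cyclic loess (large 0.31, small 0.32), 0.31 with 75th percentile centring (0.32 and 0.31), 0.49 with median centring (0.50 and 0.49) and 0.48 without RUNX2/MYC replicate 1 and WT replicate 3 (small 0.48). With 1 array left out it ran from 0.36 to 0.45 (large 0.35 to 0.46, small 0.36 to 0.45). The large minus small difference turned to -0.013 after cyclic loess, -0.012 with probe sets averaged per gene and -0.013 with proteins of other names added, and with 1 array left out it ran from -0.023 to 0.068. The median SD of RUNX2/MYC minus that of WT, -0.0029, turned to 0.033 with median centring and 0.023 without RUNX2/MYC replicate 1 and WT replicate 3, and with 1 array left out it ran from -0.048 to 0.030.

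Low members changed sign. Mrpl44 was at -0.065 with array weights and -0.028 with 75th percentile centring, and ran from -0.0033 (without RUNX2/MYC replicate 2) to 0.12 with 1 array left out. Mrpl51 was at -0.13 after cyclic loess, -0.072 with 75th percentile centring and -0.076 after quantile normalization, and ran from -0.016 (without RUNX2/MYC replicate 2, and likewise without WT replicate 1) to 0.079 with 1 array left out. Mrps21 was at -0.0077 after cyclic loess, and Mrps16 at 0.02 with median centring. The cause of these changes was not tested. Of the values of 27 named members under these alternatives, 377 kept sign and side of the threshold, 51 gained a call, 76 lost one and 10 changed sign. The reading of 1 probe set per gene from the gene's own chromosome was chosen after seeing the data.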
